A study of Mus musculus with 6 samples.

Results

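The aldehyde dehydrogenase (ALDH) 3 and 1A genes are described here in tuft-like and non-tuft-like medullary thymic epithelial cells (mTEC) of the mouse. They are Aldh3a1, Aldh3a2, Aldh3b1, Aldh3b2, Aldh3b3, Aldh1a1, Aldh1a2 and Aldh1a3, 8 of the 52636 genes in the table of read counts. They were taken by symbol after the Ensembl identifiers had been matched to the annotation. All 8 passed the filter on low counts, which left 32496 genes. These 8 genes were picked with the difference between the populations already known. Their levels and fold changes are therefore given as a description, without a test of their own. Whether they passed in the fit over all genes is reported, but it is not support for a difference. The other gene lists were tested in the fit over all genes. They too were chosen with earlier results of these data known, so their shares of called genes are description.

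Both populations came from the thymus of C57BL/6 mice at 6 weeks of age, sorted by flow cytometry, with 3 libraries each. The labels give both as binding the lectin UEA, as MHCIIlo, and as lacking CD80, Sca1 and CD63. The tuft-like cells carried CD117 and CD66a on their surface and the non-tuft-like cells carried neither. Trizol is named for the sort in the study's methods and an RNeasy column in the labels, and total RNA went into an ultra-low input library kit. No source says whether the libraries came from separate mice or from pools, so the spread between libraries, which is all that p-values measure here, may be technical in part. Values are RNA levels of sorted bulk cells, in which fewer cells of a type and less RNA per cell cannot be told apart.

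Gene counts per library ranged from 20097617 to 48369825. The tuft cell genes followed the labels. All 10 of them, Dclk1, Trpm5, Pou2f3 and Il25 included, rose in tuft-like mTEC, and the summed level of the list was 9937 to 16472 CPM (counts relative to library size, after TMM, a factor per library that evens out its composition) against 595 to 764 CPM in the non-tuft-like cells. The non-tuft-like cells carried more RNA of other epithelial programmes. The 10 keratinocyte genes summed to 4258 to 6382 CPM in these libraries and 219.9 to 1631 CPM in the tuft-like libraries, and 6 of them fell. The 10 mature mTEC genes, Aire among them, summed to 6823 to 8424 and 1156 to 2544 CPM, and 7 fell. Of the 8 cortical genes, 2 fell, with sums of 606 to 1301 and 264 to 404 CPM. Of the 8 macrophage and dendritic cell genes, Cd68 fell, with sums of 228 to 359 and 159.8 to 229 CPM. The fibroblast (8 genes), endothelial (6) and thymocyte (7) lists had no call by edgeR, DESeq2 or limma voom, and 0, 1 and 0 of their genes had an unadjusted p under 0.05 in edgeR. Tuft-like replicate 1 held the most fibroblast and endothelial RNA, 199.0 and 202 CPM, against at most 92.5 and 35.9 CPM in the other libraries. In tuft-like replicate 3, 8 marker genes of other cell types were at a count of 0, Col3a1, Cldn5 and Cd8a among them. Rose and fell are used of genes with a false discovery rate (FDR) under 0.05 in edgeR's quasi-likelihood test over all tested genes. A call means the same. Of all tested genes, 1.16% rose and 0.951% fell, and the counts of calls in every list stand beside these shares. Counts of genes with an unadjusted p under 0.05 have no such share here and are description.

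ALDH enzymes oxidise aldehydes to carboxylic acids, with NAD or NADP as the electron acceptor. The ALDH3 enzymes act mainly on fatty, aromatic and lipid-derived aldehydes, which arise from membrane lipids, sphingolipids and lipid peroxidation. The ALDH1A enzymes are the retinaldehyde dehydrogenases, which make retinoic acid, the ligand of nuclear receptors that control the differentiation of many epithelia. In the skin and cornea several ALDH3 enzymes are abundant, and Aldh3a1 is a classical target of the aryl hydrocarbon receptor.

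The genes of the ALDH3 group lie in 2 clusters. Aldh3a1 (chromosome 11, 61207537 to 61218421, plus strand, build GRCm38) and Aldh3a2 (chromosome 11, 61223417 to 61267464, minus strand) are 4996 bp apart. Aldh3b1 (chromosome 19, 3913491 to 3929808, minus strand), Aldh3b3 (3958645 to 3972103, plus strand) and Aldh3b2 (3972328 to 3981646, plus strand) lie side by side, with 225 bp between Aldh3b3 and Aldh3b2. Aldh1a1 (chromosome 19, 20492715 to 20643465, plus strand) lies elsewhere on that chromosome, Aldh1a2 (71215789 to 71296243, plus strand) on chromosome 9 and Aldh1a3 (66390890 to 66427517, minus strand) on chromosome 7. No exon of the 8 genes overlaps an exon of another gene on either strand.

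The Aldh3b genes are close copies, which bears on how far their reads can be told apart. The coding sequences of Aldh3b2 and Aldh3b3 were identical at 89.7% of aligned bases, those of Aldh3b1 and Aldh3b3 at 85.1% and those of Aldh3b1 and Aldh3b2 at 82.9%, against 66.2% for Aldh3a1 and Aldh3a2. A window of 60 coding bases in which Aldh3b2 and Aldh3b3 are most alike is shown to make this plain, with the matching stretch of Aldh3b1. It lies in exon 4, at chr19:3921513-3921572 on the minus strand for Aldh3b1, chr19:3978435-3978494 on the plus strand for Aldh3b2 and chr19:3964838-3964897 on the plus strand for Aldh3b3, all GRCm38 and all written 5′ to 3′ along the gene, with capitals for bases that differ from Aldh3b3.
Aldh3b1: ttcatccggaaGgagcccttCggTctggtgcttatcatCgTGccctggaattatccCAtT
Aldh3b2: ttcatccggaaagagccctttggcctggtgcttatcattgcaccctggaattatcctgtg
Aldh3b3: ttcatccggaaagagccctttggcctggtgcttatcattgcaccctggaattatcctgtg
Here Aldh3b2 and Aldh3b3 did not differ at any base and Aldh3b1 differed at 9. A read that falls inside this stretch fits both genes, and HTSeq in its default mode does not count reads aligned to more than 1 place. The window in which Aldh3b2 and Aldh3b3 are least alike lies in exon 2, at chr19:3977507-3977566 and chr19:3963847-3963906. The matching stretch of Aldh3b1 is at chr19:3923834-3923893.
Aldh3b1: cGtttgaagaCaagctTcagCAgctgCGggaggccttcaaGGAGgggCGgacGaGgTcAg
Aldh3b2: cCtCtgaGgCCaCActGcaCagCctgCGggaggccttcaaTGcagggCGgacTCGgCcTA
Aldh3b3: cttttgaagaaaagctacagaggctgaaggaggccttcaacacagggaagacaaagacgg
In this window Aldh3b1 differed from Aldh3b3 at 17 bases and Aldh3b2 at 22. Over their whole transcripts, 24.2% of the 50-base words of Aldh3b2, 12.8% of those of Aldh3b3 and 8.97% of those of Aldh3b1 occur in another gene, mostly in one another. For Aldh1a1 the share was 3.06%, all of it shared with its copy Aldh1a7, and for Aldh1a3 it was 1.15%. Aldh3a1, Aldh3a2 and Aldh1a2 shared no such word. Reads from the shared stretches of the Aldh3b genes may be missing from the counts, so their levels are uncertain to that extent.

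The ALDH3 genes stood on opposite sides of the comparison. Aldh3a1, Aldh3b2 and Aldh3b3 stood lower in tuft-like mTEC, Aldh3a2 stood higher, and Aldh3b1 overlapped. Of the 8 genes, 3 had a call, all with the lower level in tuft-like mTEC, where 2.11% of all tested genes had a call and 0.951% of all tested genes had one with the lower level. In 4 of the 8 no library of one population overlapped with those of the other, 3 with the lower and 1 with the higher level in tuft-like mTEC, against 16.0% of all tested genes, 8.85% with the lower and 7.18% with the higher level. Since the genes were picked on this contrast, nothing is read from these shares. The median log2 fold change (tuft-like over non-tuft-like) was -0.96 over the 8 genes, -1.95 over the 5 ALDH3 genes and 0.02 over all tested genes.

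**Figure D1:**
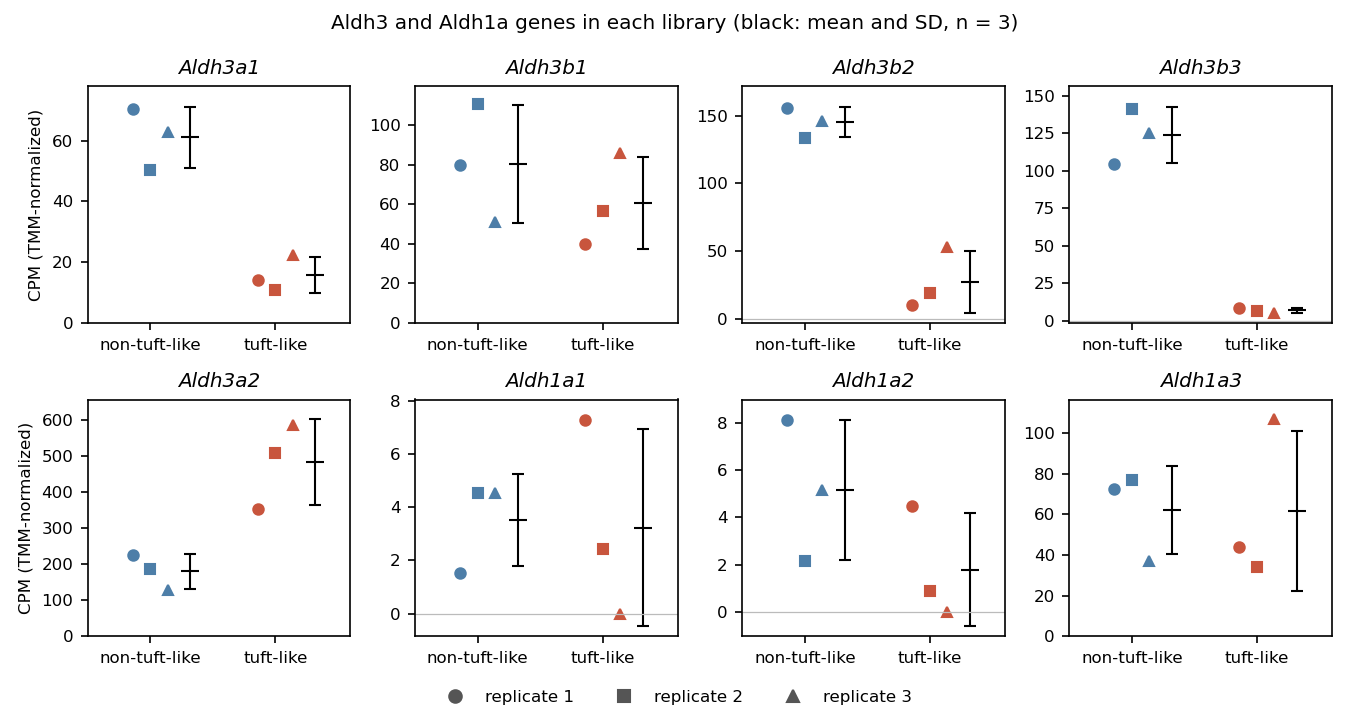
Level of each of the 8 genes in every library, in TMM-normalized CPM on a linear axis of its own per gene, with non-tuft-like libraries in blue, tuft-like in red, the symbol giving the replicate and the black bar the mean and SD of 3 libraries. Aldh3b3 is at 105 to 142 CPM in the blue libraries and at most 8.55 CPM in the red ones, Aldh3a2 is higher in all 3 tuft-like libraries, and the Aldh1a genes overlap.

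Aldh3b3, a mouse enzyme of the plasma membrane that acts on long-chain aldehydes, had the largest difference of the 8. Non-tuft-like replicates 1, 2 and 3 had 105, 142 and 125 CPM, and the tuft-like replicates in the same order 8.55, 6.84 and 5.58 CPM. The groups were far apart, and the 3 tuft-like libraries were close to one another. The means were 123.8 ± 18.5 and 6.99 ± 1.49 CPM (SD, n = 3 each), so the tuft-like level was 5.65% of the other, and the log2 fold change was -4.15 (SE 0.32). Per kb of exon, 2 of the 3 tuft-like libraries had Aldh3b3 below the 99th percentile of 1092 olfactory receptor genes of the same library, used here as a low reference although mTEC that express Aire can transcribe such genes. The log2 fold change was between -4.31 and -4.04 when any 1 library was left out. Each of these 6 omissions left a call, which is no support for a gene picked on this contrast.

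Aldh3b2, whose product sits on lipid droplets, was at 156, 134 and 146 CPM in the non-tuft-like libraries and at 9.67, 18.97 and 53.2 CPM in the tuft-like ones. The non-tuft-like libraries lay within 1.16-fold of one another, while tuft-like replicate 3 was 5.50-fold above tuft-like replicate 1. The means were 145.2 ± 11.1 and 27.3 ± 22.9 CPM (SD, n = 3), and the log2 fold change was -2.41 (SE 0.53). Without tuft-like replicate 3 the value was -3.38, and the call was lost without any 1 of the non-tuft-like libraries or without tuft-like replicate 2. The summed keratinocyte markers had the same order in the tuft-like libraries, 219.9, 639 and 1631 CPM in replicates 1, 2 and 3. So did the sums of the tuft cell, mature mTEC and cortical genes, so the order is not particular to keratinocyte markers. The fibroblast, endothelial and thymocyte sums had the reverse order, as did the share of reads outside any gene, 61.6%, 47.6% and 19.7%. The part of any of these in the level of Aldh3b2 was not tested.

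The neighbours Aldh3b2 and Aldh3b3 had a ratio that spread more widely in the tuft-like libraries. The ratio of Aldh3b2 to Aldh3b3, each in CPM, was 1.49, 0.944 and 1.17 in the non-tuft-like libraries. In the tuft-like libraries it was 1.13, 2.77 and 9.53. The denominator Aldh3b3 lay below the olfactory receptor reference in 2 of these 3 libraries, and the difference in spread was not tested.

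Aldh3b1, the third gene of that cluster and a membrane-bound enzyme for medium- and long-chain aldehydes, overlapped between the populations. It had 79.7, 110.5 and 50.9 CPM in the non-tuft-like libraries against 39.8, 56.7 and 85.8 CPM. Its log2 fold change of -0.40 (SE 0.38) was about as large as its error. Leaving out 1 library moved it between -0.78 and -0.10.

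Aldh3a1, a cytosolic enzyme that is very abundant in cornea and stomach, had 70.3, 50.3 and 62.8 CPM in the non-tuft-like libraries and 14.1, 11.0 and 22.2 CPM in the tuft-like ones. The lowest non-tuft-like library was over the highest tuft-like library. The means were 61.2 ± 10.1 and 15.8 ± 5.81 CPM (SD, n = 3), a ratio of 3.88, and the log2 fold change was -1.95 (SE 0.37). It lost its call without any 1 of the libraries other than tuft-like replicate 3, at log2 fold changes between -2.32 and -1.75 over all 6 omissions.

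Aldh3a2, the fatty aldehyde dehydrogenase of the endoplasmic reticulum whose loss causes Sjögren-Larsson syndrome in humans, was the gene of the 8 with the higher level in tuft-like mTEC. The non-tuft-like libraries had 225, 186 and 129.7 CPM and the tuft-like libraries 353, 507 and 586 CPM. Every tuft-like library was above every non-tuft-like library. The means were 180.2 ± 47.9 and 482 ± 119 CPM (SD, n = 3), 2.67-fold apart, and the log2 fold change was 1.42 (SE 0.33). It had no call in edgeR's test as set here. In 7 of 13 alternative settings it had a call, DESeq2, limma voom and the omission of tuft-like replicate 1 among them. These calls are no support for a gene picked on this contrast. The log2 fold change was between 1.20 and 1.61 with any 1 library left out. The summed tuft cell genes had the same order in the tuft-like libraries, 9937, 14253 and 16472 CPM. The keratinocyte, mature mTEC and cortical sums shared this order, as did Aldh3b2 and Aldh3b1, so it is not particular to tuft cell genes. The part of any of these in the level of Aldh3a2 was not tested.

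The pair on chromosome 11 thus stood in opposite directions across 4996 bp. Aldh3a2 over Aldh3a1, as a ratio of CPM, was 3.20, 3.69 and 2.06 in the non-tuft-like and 25.0, 46.2 and 26.4 in the tuft-like libraries. The 2 sets of ratios did not overlap.

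**Figure D2:**
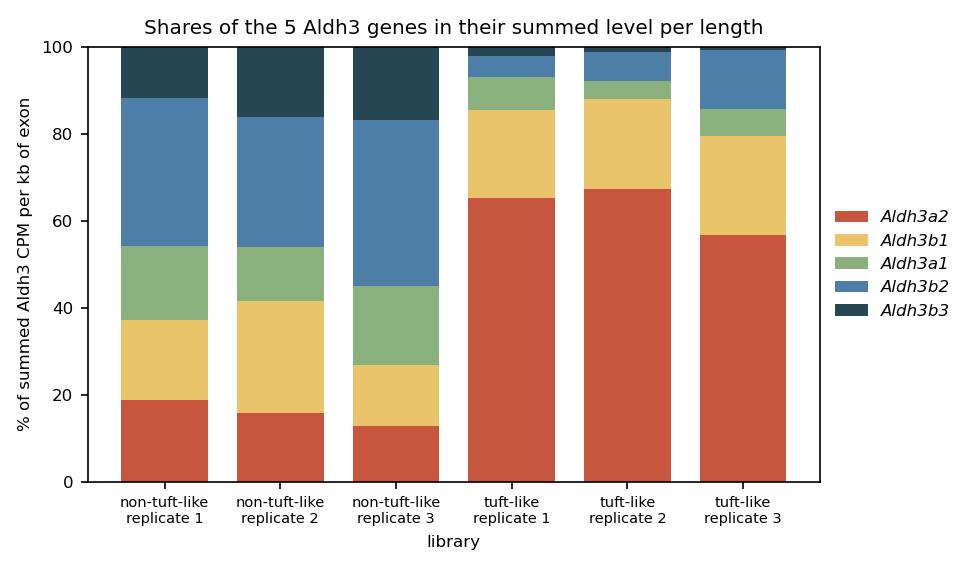
Share of each ALDH3 gene in the summed CPM per kb of exon of the 5 genes, in percent, 1 bar per library. Aldh3a2 takes 12.9% to 18.8% of the sum in the non-tuft-like and 56.7% to 67.3% in the tuft-like libraries, where Aldh3b3 takes at most 2.13%.

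Levels between genes were compared per kb of exon. In non-tuft-like mTEC the order of mean levels was Aldh3b2 at 67.8 ± 5.16 CPM per kb, Aldh3b1 at 39.3 ± 14.6, Aldh3a2 at 32.1 ± 8.53, Aldh3a1 at 31.5 ± 5.203, Aldh3b3 at 29.6 ± 4.43, Aldh1a3 at 13.4 ± 4.70, Aldh1a2 at 2.28 ± 1.31 and Aldh1a1 at 0.713 ± 0.352 CPM per kb (SD, n = 3). The libraries of Aldh3b1, Aldh3a2, Aldh3a1 and Aldh3b3 overlapped, so their order is not resolved. Aldh3b2 lay above them in every library and Aldh1a3 below them. With the longest transcript as length, Aldh3b2 was not above Aldh3a2 in non-tuft-like replicate 1, at 28.6% and 28.7% of the ALDH3 sum. The first place of Aldh3b2 thus depends on the length used. In tuft-like mTEC Aldh3a2 came first at 85.8 ± 21.1 CPM per kb, above every other member in each library. Then followed Aldh3b1 at 29.7 ± 11.4, Aldh1a3 at 13.3 ± 8.53, Aldh3b2 at 12.7 ± 10.7, Aldh3a1 at 8.12 ± 2.99, Aldh3b3 at 1.67 ± 0.357, Aldh1a2 at 0.792 ± 1.055 and Aldh1a1 at 0.655 ± 0.750 CPM per kb (SD, n = 3). Aldh3b1, Aldh1a3 and Aldh3b2 overlapped with their neighbours in this order, as did Aldh3b3, Aldh1a2 and Aldh1a1.

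The make-up of the ALDH3 group differed between the populations, while its sum overlapped. The 5 genes together had 200.2 ± 18.8 CPM per kb in the non-tuft-like libraries and 138.0 ± 44.0 CPM per kb in the others (SD, n = 3). Aldh3a2 accounted for 15.8 ± 2.95% of the sum in non-tuft-like and 63.1 ± 5.61% in tuft-like mTEC. Aldh3b2 made up 34.1 ± 4.24% and 8.27 ± 4.63%, Aldh3b3 14.9 ± 2.74% and 1.36 ± 0.713%, and Aldh3a1 15.8 ± 3.03% and 6.005 ± 1.69%. Aldh3b1 held about the same share, 19.3 ± 6.02% and 21.2 ± 1.37%. Much exon sequence of Aldh3a2 lies outside its longest transcript, and with that transcript as its length its level was 58.3 CPM per kb in one population and 155.9 CPM per kb in the tuft-like one, with shares of 24.6% and 74.5%.

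The 3 retinaldehyde dehydrogenases overlapped between the populations. Aldh1a3 was the one above the olfactory receptor reference in all 6 libraries, with 72.3, 76.7 and 37.1 CPM in the non-tuft-like ones against 44.1, 33.97 and 107 CPM. The lowest and the highest library both belonged to the tuft-like population. Its log2 fold change was -0.01 (SE 0.45), and it ranged from -0.71 to 0.28 when 1 library was left out.

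Aldh1a1 had 1.51, 4.53 and 4.51 CPM in the non-tuft-like libraries and 7.27 and 2.43 CPM in tuft-like replicates 1 and 2. Aldh1a2 had 8.11, 2.17 and 5.18 CPM, and 4.50 and 0.877 CPM. Both had a count of 0 in tuft-like replicate 3, which allows a level of up to 0.0828 CPM (3 counts, counting error only). Per kb, Aldh1a1 exceeded the olfactory receptor reference in 0 of the 6 libraries and Aldh1a2 in 1, non-tuft-like replicate 1. The median olfactory receptor gene was at 0 in tuft-like replicate 3 and at 0.437 CPM per kb in tuft-like replicate 1. The fold changes of -0.12 (SE 1.61) for Aldh1a1 and -1.52 (SE 1.62) for Aldh1a2 are within their errors. None of the 13 alternative settings gave any of the 3 genes a call. For Aldh1a1 the sign also varied, between -1.53 and 0.42 with 1 library left out. Aldh1a2 stood at -3.54 without tuft-like replicate 1. That library had the most fibroblast and endothelial RNA. It also had the largest share of reads outside any gene, 61.6%, and the highest level of the median olfactory receptor gene. The part of any of these in the levels of Aldh1a1 and Aldh1a2 was not tested.

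Among the other 13 ALDH genes, Aldh2 changed. Aldh2 encodes the mitochondrial enzyme that clears acetaldehyde. It had 58.2, 57.3 and 46.5 CPM in the non-tuft-like and 433, 624 and 1059 CPM in the tuft-like libraries, with no overlap. Aldh2 rose by a log2 fold change of 3.71 (SE 0.40, FDR 0.00106 in edgeR's quasi-likelihood test), between 3.25 and 3.97 with 1 library left out, and kept its call in all 13 alternative settings. Of its exons, 130 bp lie opposite another gene, which matters only if strand was not used in counting. It was the 1 of 13 called higher, where 1.16% of all tested genes were. The other 12 did not pass, among them Aldh9a1, which oxidises aminoaldehydes, at 53.6 ± 16.98 and 86.5 ± 27.6 CPM (SD, n = 3). Over the 13 genes 2 had an unadjusted p under 0.05 in edgeR, DESeq2 called 2, 1 higher and 1 lower, and limma voom called 1. Estimates were above 0 for 7 and below 0 for 6. The libraries did not overlap for 1 gene with the higher and 2 with the lower level in tuft-like mTEC. Of all tested genes, 7.18% and 8.85% did so. Aldh1a7, the close copy of Aldh1a1, was at 5.76 ± 3.86 and 9.65 ± 10.4 CPM (SD, n = 3).

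**Figure D3:**
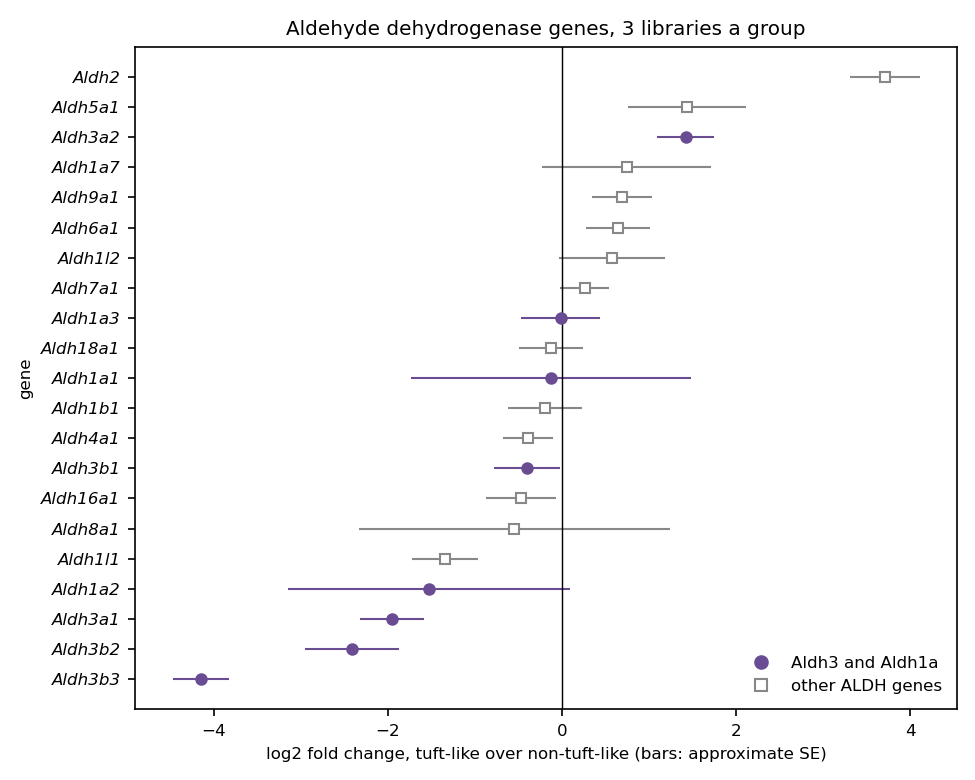
Log2 fold change, tuft-like over non-tuft-like, of the 21 ALDH genes in the table, each with its approximate standard error, from 3 libraries a population. Aldh2 lies highest at 3.71, Aldh3b3 lowest at -4.15, and the wide bars belong to genes near background such as Aldh1a1 and Aldh1a2.

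Among genes that supply or oxidise retinol, calls went in both directions and most estimates were below 0. Of 24 such genes, 1 rose and 2 fell, against 1.16% and 0.951% of all tested genes, and 21 did not pass. Estimates were below 0 for 19 and above 0 for 5. The libraries did not overlap for 6 genes with the lower and 1 with the higher level in tuft-like mTEC. Of all tested genes, 8.85% and 7.18% did so. Adh1, an alcohol dehydrogenase that also oxidises retinol, had 41.2, 41.3 and 25.1 CPM in the non-tuft-like libraries against 152.0, 232 and 249 CPM. Adh1 rose by 2.56 on the log2 scale (SE 0.33, edgeR FDR 0.00276). Rdh12, a retinaldehyde reductase, fell by 2.08 on the log2 scale (SE 0.32, edgeR FDR 0.00687), from 135.4 ± 6.36 to 31.9 ± 10.4 CPM (SD, n = 3). Stra6, the receptor through which cells take up retinol from its carrier, had 145, 127 and 96.6 CPM in the non-tuft-like libraries against 12.4, 6.75 and 27.5 CPM. Stra6 fell by 2.98 on the log2 scale (SE 0.49, edgeR FDR 0.0102). All 3 kept their calls in all 13 alternative settings. Rbp4, the carrier itself and the most abundant of the list in CPM, was at 298 ± 109 and 125.7 ± 39.3 CPM (SD, n = 3) and did not pass (edgeR FDR 0.163). The median log2 fold change of the list was -0.41.

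Downstream of retinoic acid, Fabp5 fell. Fabp5, a binding protein for fatty acids and retinoic acid, went from 418.8 ± 40.4 to 91.6 ± 49.4 CPM (SD, n = 3), or by -2.19 on the log2 scale (SE 0.39, edgeR FDR 0.0155). The FDR of Fabp5 was 0.0554 without non-tuft-like replicate 2 and 0.102 without tuft-like replicate 2. It was the 1 call among 12 genes for binding proteins, receptors and breakdown, of which 6 had an unadjusted p under 0.05. Among these 12, the libraries did not overlap for 6 genes with the lower and 0 with the higher level in tuft-like mTEC. Of all tested genes, 8.85% and 7.18% did so. The median log2 fold change of the 12 was -1.60. Cyp26a1, which degrades retinoic acid and is itself induced by it, had 54.4, 72.4 and 65.5 CPM in the non-tuft-like libraries against 6.82, 0.760 and 14.1 CPM. Its groups did not overlap and its log2 fold change was -3.15 (SE 0.78), and it did not pass (edgeR FDR 0.0814, between 0.000165 and 0.167 over the alternatives). Of 10 response genes, 9 were tested and Stra6 was the 1 called, with a median log2 fold change of -1.67. Among the 9, the libraries did not overlap for 5 genes with the lower and 0 with the higher level in tuft-like mTEC. Of the 10 response genes, 6 also stand in the lists above. Cdx1 was the most abundant response gene, at 69.9 ± 21.7 and 131.2 ± 103.8 CPM (SD, n = 3).

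Of 18 genes of the aryl hydrocarbon receptor and NRF2 batteries, which respond to foreign compounds and oxidants, Slc7a11 fell and 17 did not pass. Slc7a11, the cystine and glutamate exchanger, was at 63.5 ± 29.1 and 15.8 ± 3.69 CPM (SD, n = 3), or -2.01 on the log2 scale (SE 0.43, edgeR FDR 0.0410). Leaving out any 1 library other than non-tuft-like replicate 1 lost that call, with an edgeR FDR of up to 0.218, and so did limma voom. Tiparp, a target of the receptor, had 122.3 ± 16.2 and 257.7 ± 91.2 CPM (SD, n = 3, edgeR FDR 0.179), and Txnrd1, a target of NRF2, 89.9 ± 12.3 and 90.3 ± 8.24 CPM. Estimates were above 0 for 9 and below 0 for 9 of the 18 genes. The libraries did not overlap for 7 genes with the lower and 2 with the higher level in tuft-like mTEC. Of all tested genes, 8.85% and 7.18% did so. An unadjusted p under 0.05 in edgeR was found for 6 of the 18.

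Of 13 genes of fatty and lipid aldehyde metabolism, edgeR called 0, DESeq2 2 and limma voom 1, and 2 had an unadjusted p under 0.05 in edgeR. Sgpl1, the sphingosine phosphate lyase whose product Aldh3a2 oxidises, was at 1498 ± 229 and 799.1 ± 224.6 CPM (SD, n = 3) and did not pass at -0.91 on the log2 scale (SE 0.36, edgeR FDR 0.405). Akr1a1, an aldehyde reductase, was at 404.9 ± 36.5 and 540.4 ± 174.4 CPM. The median of the list was -0.06.

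Of the 8 barrier lipid genes of the epidermis, 5 fell, where 0.951% of all tested genes did, and the median log2 fold change was -3.13. As the list was chosen with earlier results of these data known, nothing is read from this share. Elovl4, which elongates very long fatty acids, had 246, 275 and 323 CPM in the non-tuft-like libraries against 24.8, 40.1 and 60.1 CPM. Elovl4 fell by 2.75 on the log2 scale (SE 0.36, edgeR FDR 0.00307). Sdr9c7, a dehydrogenase of acylceramide, fell by 3.34 on the log2 scale (SE 0.47, edgeR FDR 0.00427), from 142.7 ± 15.6 to 14.1 ± 8.80 CPM (SD, n = 3). The lipoxygenase genes Aloxe3 and Alox12b fell by 3.20 and 3.07 (edgeR FDR 0.0120 and 0.0196), and Alox12b had an edgeR FDR of 0.0530 without tuft-like replicate 2. Cers3, a ceramide synthase, fell by 1.81 (edgeR FDR 0.0454), a call that held without tuft-like replicate 3 and was lost without any other library, with limma voom and with the replicate number as a block. Abhd5, an activator of triglyceride lipase, was at 61.4 ± 6.39 and 77.0 ± 13.8 CPM and did not pass. The keratinocyte markers moved the same way in the same libraries, with 6 of 10 called lower, and their part in the fall of these genes was not tested.

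**Figure D4:**
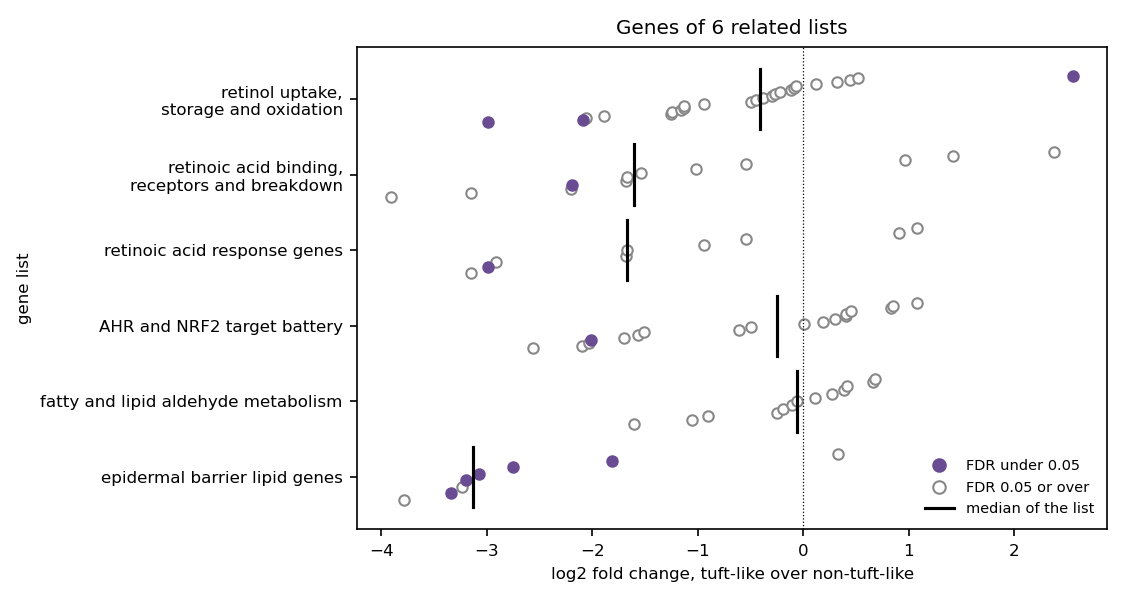
Log2 fold change of each tested gene in 6 related lists, with filled points for genes with an edgeR FDR under 0.05, open points for the rest, and a black line at the median of each list. The epidermal barrier lipid genes lie lowest, with a median of -3.13, and the fatty aldehyde genes are centred near 0 at -0.06.

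The genes whose pattern over the 6 libraries was most like that of each member were found among 11593 genes whose mean was 10 CPM or more, by the mean absolute difference of centred log2 values. For Aldh3b3 they were Sdr16c6, a short-chain dehydrogenase (difference 0.15), Msc and Gm10851. For Aldh3b2 they were Bcl2a1d (0.13), Aqp3, the water and glycerol channel of epidermis, and Lypd3, which also stands in the keratinocyte list. Those for Aldh3a2 were Ascc3 (0.05), Prkcz and Fut2. Aldh3a1 was closest to Inf2 (0.14), Fam83g and Rrad, Aldh3b1 to Larp7 (0.11), Dbn1 and Ptcd3, and Aldh1a3 to Dus3l (0.07), Nrde2 and Hm629797.

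Within 100000 bp of the 8 genes lie 23 other protein-coding genes, of which 22 were tested. edgeR and limma voom called 0 of them and DESeq2 1, 3 had an unadjusted p under 0.05 in edgeR, and their median log2 fold change was 0.08. Ndufs8 and Unc93b1, which flank Aldh3b1, stood at 0.09 and -0.08. Usp22, beside Aldh3a1, was at 175.4 ± 21.9 and 187.3 ± 42.8 CPM (SD, n = 3). Slc47a1, near Aldh3a2, had the lowest estimate near the chromosome 11 pair, -2.45 (SE 0.79, edgeR FDR 0.223).

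**Figure D5:**
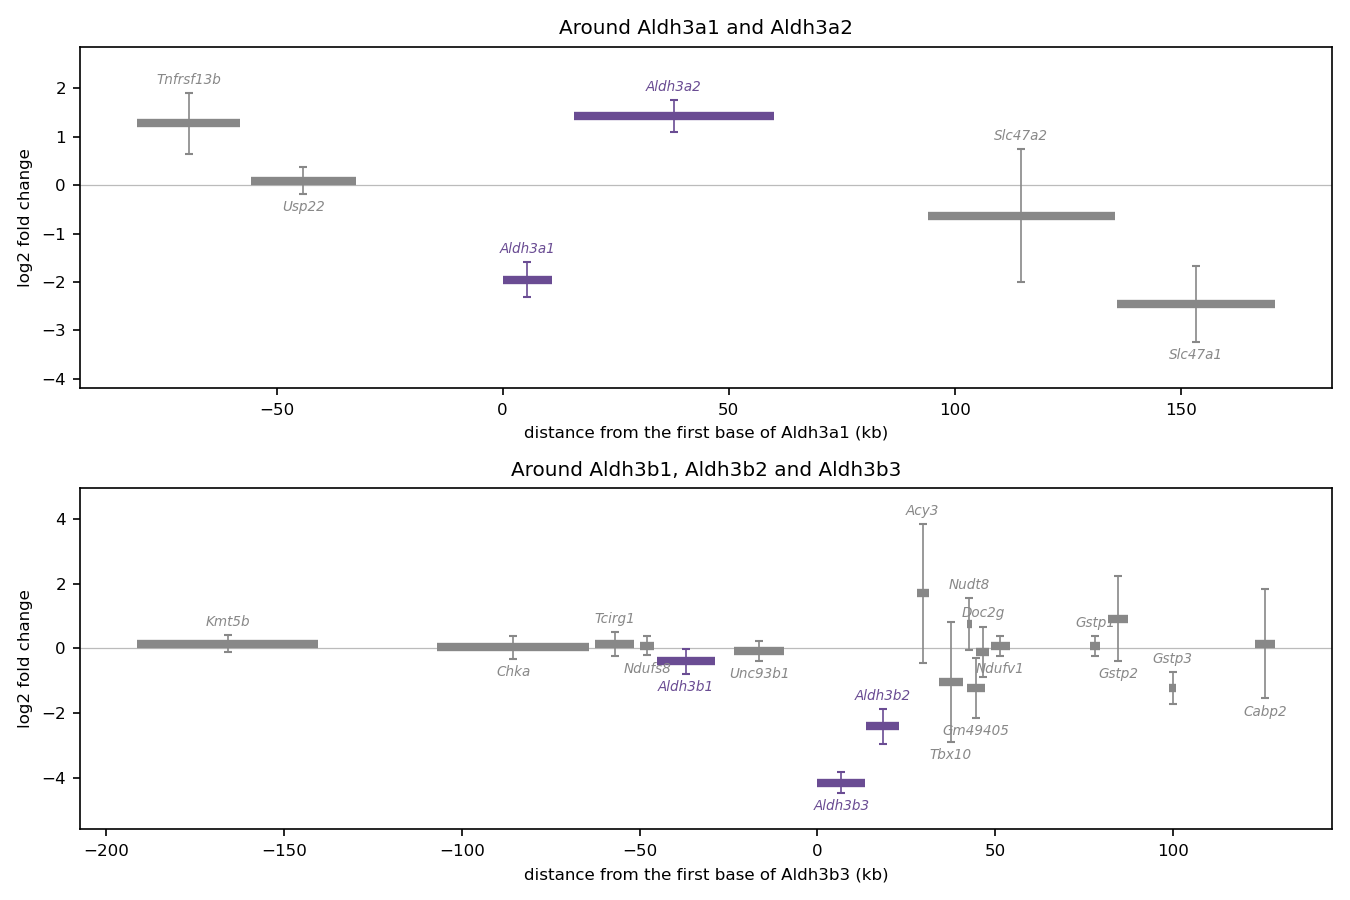
Log2 fold change, tuft-like over non-tuft-like, of tested protein-coding genes within 100 kb of the ALDH3 members, drawn over each gene's extent in kb from the first base of Aldh3a1 (top) or Aldh3b3 (bottom), with approximate standard errors. Members are in purple, other genes in grey. Aldh3b3 at -4.15 and Aldh3b2 at -2.41 lie below the genes on either side.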

How the data were processed

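Per the submitters' processing notes and methods, the authors used Trimmomatic 0.36 for trimming, STAR 2.7.3a for alignment to mm10 and HTSeq in intersection-nonempty mode for counting. The deposited values are raw read counts per gene of 6 libraries. The strand setting, annotation release and read length are not given in the sources used here. Identifiers were matched to GENCODE M21, which names 99.7% of the 52636 gene rows. The rest held 0.0164% of counts. Of the 5 HTSeq summary rows, the row of reads outside any gene held 19.7% to 61.6% of the reads tabulated for a library. All 5 rows stayed out of library sizes.

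Counts were filtered with filterByExpr (minimum count 10), scaled by TMM and tested by edgeR 4.0.16's quasi-likelihood test with Benjamini-Hochberg adjustment over all 32496 genes at FDR 0.05 (R 4.3.3). Of these, 687 were called. Standard errors are the absolute log2 fold change over the square root of F. An exact permutation test of 1 gene over 3 and 3 libraries cannot go below p = 0.1. The members and lists were chosen with earlier results of these data known. Named genes were the members, from each list the called genes and the 2 most abundant, the 3 nearest patterns per member, and neighbours within 100000 bp. Simulated counts of this comparison covered 26945 genes, of which 200 were given a change. Of these changes, 89.3% of the 16-fold and 63.6% of the 4-fold ones were recovered, and 4.88% of calls were false. No gene below that mean was given a change, and recovery was not broken down by expression level. These rates are therefore not extended to low genes such as Aldh1a1 and Aldh1a2. A count of 0 allows up to 0.0639 to 0.124 CPM, for counting error only. Alternatives were RLE factors, library totals, DESeq2 1.42.0, limma 3.58.1 voom, 2 other filters, the replicate block, omission of each library and another gene length.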

Additional observations from a re-analysis of the deposited data

Results flagged for a closer look

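Tuft-like replicate 1 stood out for its reads outside any gene, which the deposited table lists but no comparison uses. They were 61.6% of the reads tabulated for that library, above the highest non-tuft-like library at 52.5%, while tuft-like replicate 3 had 19.7%. The same library held the most Aldh1a1 of the 6, 7.27 CPM. The part of these reads in any difference was not tested.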

How the results depend on the processing

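All genes called numbered 687, against 1045 with library totals, 1904 with DESeq2 and 1127 without a filter, and between 376 and 922 when 1 library was left out. DESeq2 called 2 of the other ALDH genes, 4 of the retinoic acid binding and receptor genes, 4 response genes, 5 of the receptor and NRF2 battery and 2 fatty aldehyde genes, in place of 1, 1, 1, 1 and 0. limma voom called 3 binding and receptor, 2 response and 1 fatty aldehyde genes. Without a filter on low counts 3 binding and receptor, 2 response and 4 battery genes were called, and with library totals 3 battery genes and 1 fatty aldehyde gene. With 1 library left out the counts were 0 to 2 for binding and receptors, 1 to 2 for response genes, 0 to 2 for the battery, 0 to 1 for fatty aldehydes and 3 to 7 for barrier lipids. The log2 fold change of Aldh3b2 was -3.38 to -2.004 and that of Aldh1a2 -3.54 to -0.98 over these omissions. limma voom put Aldh1a1 at -2.60 and Aldh1a2 at -3.53. With the longest transcript as length, Aldh3a2 was at 58.3 and 155.9 CPM per kb and Aldh1a1 at 1.49 CPM per kb in non-tuft-like mTEC. None of the called differences among the 8 genes changed direction under these alternatives. Except for the omissions of samples and the change of length, the cause of these shifts was not tested.

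The replicate numbers did not pair the samples: deviations of same-numbered libraries correlated at -0.12, -0.05 and -0.29. With the replicate number as a block, 737 genes were called, with 2 binding and receptor, 2 response and 1 fatty aldehyde genes, and 3 of the 8 members.

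A count of 0 allows at most 0.124 CPM at this depth. The biological coefficient of variation between libraries was 1.10 over all genes.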
